A study of Mus musculus with 4 samples.

Results

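The 10 genes described here belong to the Wnt pathway: the ligands Wnt3 and Wnt3a, the inhibitors Apcdd1 and Dkk1, the agonist Rspo3, the feedback and adaptor genes Axin2, Nkd1 and Dact1, the transcription factor Lef1 and the target gene Sp5. They were taken as every non-control probe whose gene name in the scanner output was 1 of these symbols, which gave 17 probes of 41174 on the array. Of these, 13 probes of 9 genes were bright enough to be tested, and both Rspo3 probes were not. RNA came from pools of whole mouse embryos homozygous for V1330M in Btaf1, an ENU-induced missense allele, and from pools of Btaf1+/+ embryos. Both genotypes had a mixed background of C57BL/6J, the mutagenised strain, and FVB/NJ, with 50 to 90% FVB, and embryos of 3 to 5 somites were used where possible. In the stage_matched set, mutant and wild-type embryos were paired by somite number. In the age_matched set, preference went to litter mates, which could differ by up to 5 somites. There were 4 two-colour arrays, of which replicate 1 of each set had the mutant RNA labelled with Cy5 and replicate 2 the wild-type RNA. As the arrays of a set hold the same RNA, their ratios were averaged, and n = 2 sets. The labels give neither the number of embryos in a pool nor whether the 2 sets share embryos. The p-values for the mean of the sets therefore measure only the spread between these 2 sets, moderated over all tested probes. Those for the difference between the sets measure technical spread between arrays, also moderated over all tested probes.

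Wnt ligands are secreted lipid-modified proteins that bind Frizzled receptors and LRP co-receptors. In the canonical branch this stops the Axin and APC complex from destroying beta-catenin, which then enters the nucleus and acts with the TCF/LEF factors on target genes. In the gastrulating and segmenting mouse embryo, Wnt3 is needed to form the primitive streak, and Wnt3a keeps the tail bud producing presomitic mesoderm, from which somites are cut. Several targets, such as Axin2, Nkd1 and Dkk1, feed back as inhibitors. BTAF1 uses ATP to take TBP, the factor that binds TATA elements, off promoters.

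The upstream promoter sequences of Sp5, Wnt3a and Dkk1 are shown because Sp5 and Wnt3a are the 2 members whose ratios differed between the sets, and Dkk1 because it lies on the chromosome of Btaf1 and held both kinds of motif searched, as did 1 of the 4 Lef1 starts. They are the 250 bases before the annotated start, 5′ to 3′ in the direction of transcription, from RefSeq on GRCm38.p6. Capitals mark exact matches, on either strand, to TATAAA or to a TCF/LEF motif, which was CTTTGAT (in 3.73% of all RefSeq promoters), CTTTGAA (5.14%), CTTTGTT (5.85%) or CTTTGTA (3.63%). No match in these sequences overlaps another.
Sp5, chr2:70474673-70474922, plus strand: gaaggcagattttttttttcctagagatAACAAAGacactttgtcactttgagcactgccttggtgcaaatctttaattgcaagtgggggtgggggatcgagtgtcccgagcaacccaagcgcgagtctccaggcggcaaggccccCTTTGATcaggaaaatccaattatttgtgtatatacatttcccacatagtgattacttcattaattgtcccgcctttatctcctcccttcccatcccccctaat
Wnt3a, chr11:59290752-59291001, minus strand: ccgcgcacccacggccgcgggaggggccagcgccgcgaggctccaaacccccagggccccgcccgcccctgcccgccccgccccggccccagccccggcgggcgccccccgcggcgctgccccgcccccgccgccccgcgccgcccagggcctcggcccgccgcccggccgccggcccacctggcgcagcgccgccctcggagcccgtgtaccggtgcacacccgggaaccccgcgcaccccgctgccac
Dkk1, chr19:30549497-30549746, minus strand: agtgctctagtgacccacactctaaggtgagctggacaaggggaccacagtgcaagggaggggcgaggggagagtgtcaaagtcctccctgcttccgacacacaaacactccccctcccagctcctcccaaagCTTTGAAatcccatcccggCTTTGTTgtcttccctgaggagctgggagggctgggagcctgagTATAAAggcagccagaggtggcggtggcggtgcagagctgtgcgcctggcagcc
In Sp5, CTTTGAT begins at position -104 from the start and the reverse complement of CTTTGTT at -222. In Dkk1, CTTTGAA begins at -117, CTTTGTT at -98 and TATAAA at -54. The Wnt3a window holds none of the motifs and is 86.3% G and C over the 300 bases that include 50 after the start, against 45% for Sp5 and 60.7% for Dkk1. RefSeq promoters were found for 8 of the 10 genes, at 11 start sites, and Apcdd1 and Rspo3 were not in the table. A TCF/LEF match lay within those 300 bases in 4 of the 8 genes, the other 2 being Wnt3 and Lef1. Lef1 held it at 1 of its 4 starts, and this count is by gene, while the shares that follow are by promoter. Over all 32851 promoters of this length in the table, 16.9% held at least 1 of the 4 TCF/LEF motifs and 13.6% held TATAAA.

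Between 52.9% and 59.6% of the spots on an array were well above background, and 0 spots were saturated. The 4 arrays were on 1 slide with 1 scan day. Over all tested probes, the log2 ratios of the 2 arrays with the mutant in Cy5 correlated at r = 0.706 and those of the 2 exchanged arrays at 0.423, against 0.392 for the 2 arrays of the stage_matched pools and 0.157 for those of the age_matched pools. Arrays of like dye orientation were thus closer to each other than arrays of the same pools, across probes, which are not independent replicates. The dye term of a probe means how far the arrays with the mutant in Cy5 lay from the mean of both orientations. It is therefore given for the 7 tested member probes where it was larger in size than the mean ratio. Btaf1 itself read 0.10 (limma adjusted p = 0.555), and since a missense allele need not alter the transcript level, this does not check the labels. Markers of the heart, brain, somites and tail bud were all measured in these whole embryos: 9 of 9, 9 of 13, 8 of 8 and 14 of 16 listed genes, respectively, were tested.

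Across the 9 tested genes, the log2 ratio of mutant over wild type, the mean of the 2 sets, ran from -0.41 for Apcdd1 to 0.34 for Lef1. Apcdd1 was the 1 gene that passed the threshold of 0.05 in limma's test, adjusted by Benjamini-Hochberg over all 21940 tested probes, and it fell. The other 12 tested probes did not pass, with 0 higher, and 2 of them had an unadjusted limma p under 0.05. Unadjusted, 5014 of all 21940 tested probes were under 0.05 in the same limma test. Over the whole array 4.81% of tested probes passed, so 1 of 13 is close to the background. By gene, read at its brightest tested probe, 2.09% of all 12891 genes rose and 2.74% fell. The ratio had the same sign on all 4 arrays for 3 of the 13 probes, against 27.6% of all tested probes.

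**Figure D1:**
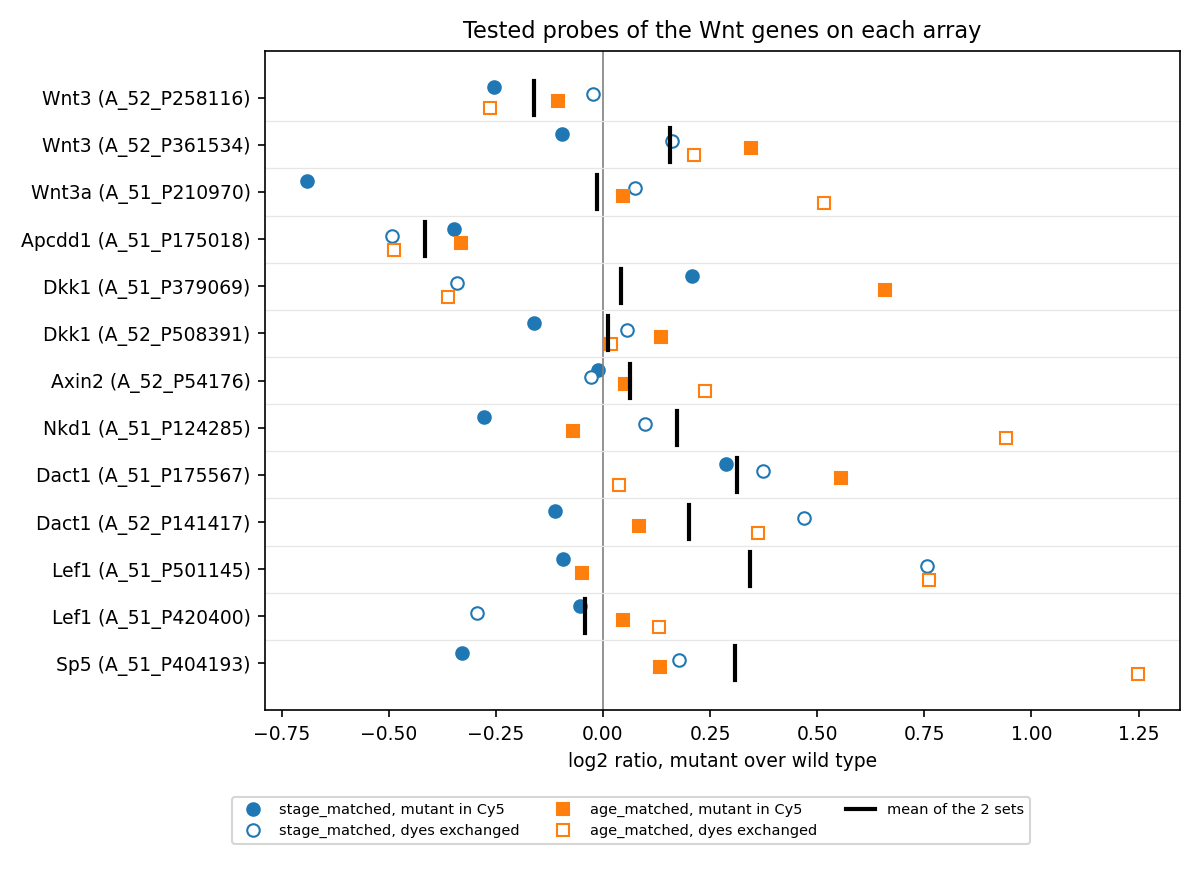
Log2 ratio of mutant over wild type (x axis) for the 13 tested probes of 9 genes (rows), with 1 point per array; circles are the stage_matched and squares the age_matched pools, filled with the mutant in Cy5 and open with the dyes exchanged, and the black bar is the mean of the 2 sets. All 4 Apcdd1 points lie below 0, while the Lef1 probe A_51_P501145 splits by dye orientation, near 0 when filled and at 0.76 when open.

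Among the ligands, neither gene passed the test. Wnt3a (probe A_51_P210970, chromosome 11, 59061659 to 59061718, minus strand, in the mm9 coordinates of the files) read -0.69 and 0.07 in replicates 1 and 2 of the stage_matched set and 0.05 and 0.52 in those of the age_matched set. All values of 4 arrays below are in this order. The lowest value came from 1 stage_matched array, and the other 3 values were positive, so the sets overlapped. The mean was -0.01 ± 0.42 (SD, n = 2), with a 95% interval of -0.33 to 0.30 and limma adjusted p = 0.967. The dye term was -0.31. Its sign turned to 0.05 with the scanner's processed signals, to 0.18 on leaving out stage_matched replicate 1, and to 0.10 on leaving out age_matched replicate 1.

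Wnt3 was read by 2 probes on chromosome 11 that gave opposite signs. Probe A_52_P258116 (103677409 to 103677468, plus strand, mm9) read -0.25, -0.02, -0.10 and -0.26, with a mean of -0.16 ± 0.03 and limma adjusted p = 0.339. Probe A_52_P361534 (103679038 to 103679097) read -0.10, 0.16, 0.35 and 0.21, with a mean of 0.16 ± 0.17 and limma adjusted p = 0.405. The first was negative on 4 of 4 arrays and the second positive on 3. Their 95% intervals, -0.37 to 0.05 and -0.08 to 0.39, both contain 0 and overlap each other, so no direction is given for Wnt3.

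Among the inhibitors, Apcdd1, a membrane glycoprotein that binds Wnt ligands and LRP5, was lower in the mutant pools of both sets. On probe A_51_P175018 (chromosome 18, 63113302 to 63113361, plus strand, mm9) the log2 intensity was 11.83 and 11.76 in the mutant and 12.18 and 12.26 in the wild-type channel of the stage_matched arrays. On the age_matched arrays it was 12.02 and 11.31 in the mutant and 12.35 and 11.80 in the wild-type channel. The ratios were -0.35, -0.49, -0.33 and -0.49, so the mutant channel was the dimmer of the 2 on 4 of 4 arrays. Apcdd1 fell by 0.41 on the log2 scale, ± 0.01 (SD, n = 2), or 1.33-fold, with a 95% interval of -0.62 to -0.21 and limma adjusted p = 0.0439. The SD between the set means was smaller than the spread over the 4 ratios, which spanned 0.16. The call ended on leaving out any 1 array: limma adjusted p = 0.0795 without stage_matched replicate 1, 0.0704 without stage_matched replicate 2, 0.295 without age_matched replicate 1 and 0.128 without age_matched replicate 2. It also ended without background correction (limma adjusted p = 0.0735), with processed signals (0.0567) and when dim probes were also tested (0.052). Over the 13 alternatives the ratio stayed between -0.49 and -0.38. A second probe, A_52_P642726, was above background on 0 of 4 arrays in the mutant channel and on 2 in the wild-type channel, so no fold is given for it. In pools of whole embryos, fewer cells that express a gene and less RNA per cell cannot be told apart.

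Dkk1, a secreted inhibitor that blocks the LRP co-receptors, did not pass on either of its probes. Probe A_51_P379069 (chromosome 19, 30621424 to 30621483, minus strand, mm9) read 0.21, -0.34, 0.66 and -0.36. Both positive values came from arrays with the mutant in Cy5 and both negative ones from the exchanged arrays, and the dye term was 0.39. The mean was 0.04 ± 0.15 (SD, n = 2; 95% interval -0.19 to 0.27; limma adjusted p = 0.844). Probe A_52_P508391 read -0.16, 0.06, 0.14 and 0.02, with a mean of 0.01 ± 0.09, a dye term of -0.02 and limma adjusted p = 0.952. Dkk1 is the 1 member on the chromosome of Btaf1, and lies 6.47 Mb from it. Within 10 Mb of Btaf1, 17 of 248 tested probes passed (6.85%), of which 6 were higher and 11 lower. Over the whole array 4.81% of tested probes passed, of which 365 were higher and 690 lower. The part that C57BL/6J sequence linked to the mutant allele has in the values near Btaf1 was not tested.

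Rspo3, a secreted protein that raises the level of Frizzled and LRP at the cell surface, was near the detection limit. Probe A_51_P428157 (chromosome 10, 29172742 to 29172800, mm9) was above background on 0 of 4 arrays in either channel, and probe A_52_P337760, whose 2 ends lie 1720 bases apart, on 1 array in each. No ratio is given for Rspo3, and a difference was not detectable at this signal.

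The feedback inhibitors and the adaptor of the cytoplasm did not pass. Axin2, a scaffold of the beta-catenin destruction complex and a widely used readout of Wnt signalling, read -0.01, -0.03, 0.05 and 0.24 on probe A_52_P54176 (chromosome 11, 108811980 to 108812039, mm9). Its mean was 0.06 ± 0.12 (SD, n = 2), and the 95% interval of -0.16 to 0.28 contains changes of either sign (limma adjusted p = 0.75). Nkd1, which binds Dishevelled and dampens the signal, read -0.28, 0.10, -0.07 and 0.94 on probe A_51_P124285 (chromosome 8, 91116159 to 91116218, mm9). The age_matched exchanged array stood above the other 3, and the mean was 0.17 ± 0.37 (95% interval -0.12 to 0.47; limma adjusted p = 0.476). The dye term of Nkd1 was -0.35, and without age_matched replicate 2 its mean turned to -0.08.

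Dact1, another Dishevelled-binding protein, was positive on 7 of the 8 readings of its 2 probes and did not pass on either. Probe A_51_P175567 (chromosome 12, 72420453 to 72420512, mm9) read 0.29, 0.37, 0.56 and 0.04, and both channels were above background on all 4 arrays. Its mean was 0.31 ± 0.02 (SD, n = 2; 95% interval 0.10 to 0.52; limma adjusted p = 0.092). The lowest of the 4 was the age_matched exchanged array. Probe A_52_P141417 (72419784 to 72419843) read -0.11, 0.47, 0.08 and 0.36, with a mean of 0.20 ± 0.03, a dye term of -0.21 and limma adjusted p = 0.239.

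Lef1, the TCF/LEF family member that is itself a Wnt target in the presomitic mesoderm, gave values that followed the dyes. On probe A_51_P501145 (chromosome 3, 130927036 to 130927095, plus strand, mm9) the ratio was -0.09 and -0.05 with the mutant in Cy5 and 0.76 on both exchanged arrays. The values of the 2 dye orientations did not overlap, while the 2 sets gave nearly the same mean, 0.33 and 0.36. The mean was 0.34 ± 0.02 (SD, n = 2; 95% interval 0.13 to 0.55; limma adjusted p = 0.0716), with a dye term of -0.41, so the small SD between sets leaves out most of the spread of this probe. Probe A_51_P420400, a probe of 60 bases whose ends lie 18162 bases apart in the genome, read -0.05, -0.29, 0.05 and 0.13. Its mean was -0.04 ± 0.19 (limma adjusted p = 0.845), its sign turned to 0.03 with processed signals, and the third Lef1 probe was not above background on any array. The 2 tested probes thus differ in direction, and none is given for Lef1.

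Sp5, a zinc-finger factor that represses Wnt targets and is a direct target itself, had the widest range of the members. Probe A_51_P404193 (chromosome 2, 70315688 to 70315747, plus strand, mm9) read -0.33, 0.18, 0.13 and 1.25. The log2 intensity behind these values was 11.57 and 11.66 (mutant) against 11.89 and 11.48 (wild type) for the stage_matched pools, and 12.28 and 12.24 against 12.15 and 10.99 for the age_matched pools. The sets overlapped between 0.13 and 0.18. The highest value came from 1 exchanged array, whose wild-type channel was the lowest of these intensities at 10.99, though above background. The mean was 0.31 ± 0.54 (SD, n = 2; 95% interval -0.07 to 0.68; limma adjusted p = 0.305), with a dye term of -0.41. Over the 13 tested probes, the dye term was larger in size than the mean for 7 (53.8%), against 46.5% of all tested probes.

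The second comparison asks whether the ratio of mutant over wild type differed between the age_matched and the stage_matched pools. Sp5 and Wnt3a were higher in the age_matched set than in the stage_matched set, and 0 members passed as lower by limma's test (also 0 at an unadjusted p under 0.05). For Sp5 the set means were -0.07 and 0.69, a difference of 0.77 (SE 0.18; 95% interval 0.42 to 1.11; limma adjusted p = 0.00244). For Wnt3a they were -0.31 and 0.28, a difference of 0.59 (SE 0.17; 95% interval 0.25 to 0.93; limma adjusted p = 0.0398). Nkd1 went from -0.09 to 0.44, a difference of 0.53 (95% interval 0.18 to 0.87) that did not pass (limma adjusted p = 0.0931). For Apcdd1 the difference was 0.01, with a 95% interval of -0.33 to 0.36, and for Lef1 (A_51_P501145) it was 0.03, with -0.32 to 0.37. The error of this test comes from the dye exchange of the same pools and is moderated over all tested probes (243 total degrees of freedom). Its SE was thus nearly the same for all tested member probes, 0.17 to 0.18, whatever the spread of a probe's own arrays. Embryos and pools do not enter the test as replicates, so a call says that these 2 pairs of pools differed.

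**Figure D2:**
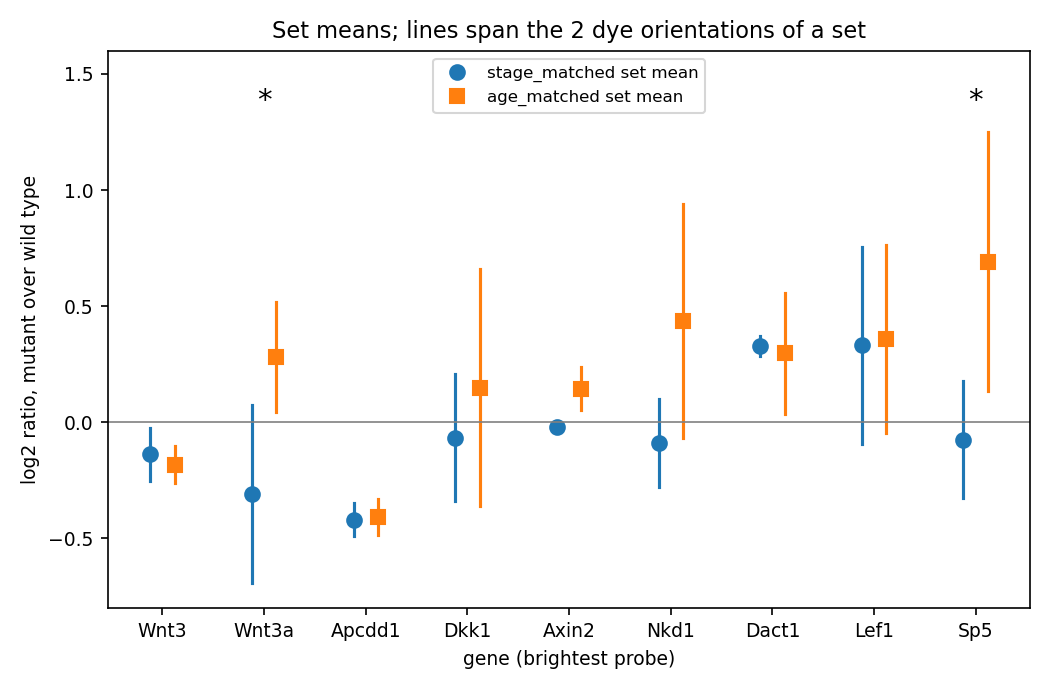
Log2 ratio of mutant over wild type (y axis) for the brightest probe of the 9 tested genes, as the mean of the stage_matched (circles) and the age_matched set (squares), with lines from the lower to the higher of the 2 dye orientations; an asterisk marks a difference between the sets past the threshold. Wnt3a and Sp5 carry the asterisk, and the 2 means of Apcdd1 lie together at -0.42 and -0.41.

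Over the whole array 2.31% of tested probes passed this test, and by gene 1.36% were higher and 0.745% lower in the age_matched set, beside 2 of 13 member probes. Of the 13, 11 had a higher ratio in the age_matched set, beside 50.3% of all tested probes; with median centring in place of loess these were 7 of 13 beside 27.9%, as the median difference of all tested probes then moved to -0.13. Neither call held under 3 of the 4 alternatives. Of all 21940 tested probes 0 passed without background correction and 1 with median centring, so a call lost there is not particular to these 2 genes. For Sp5 the difference was 0.75 without background correction (limma adjusted p = 0.405), 0.77 with processed signals (0.126) and 0.57 with median centring (1), while it passed with no filter on dim probes (0.00586). For Wnt3a it was 0.55 (limma adjusted p = 0.412), 0.56 (0.292) and 0.37 (1) in the same order, and passed with no filter (0.0339).

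The pathway around the members was described by 112 genes in 6 role lists, of which 93 were tested. Past the threshold 5 rose and 2 fell, beside 2.09% and 2.74% of all 12891 tested genes. The median ratio was 0.05, beside 0.02 for all tested genes. Without background correction the counts were 0 and 0 in limma's test, and 62 of all 21940 tested probes passed. At an unadjusted limma p under 0.05 the pathway counts were 19 and 9, beside 4744 of all tested probes. With median centring the pathway median turned to -0.04. The lists were chosen with earlier results of these arrays known, so these counts are a description. Without age_matched replicate 1 the count was 0 higher and 0 lower (limma; 12 and 5 at an unadjusted p under 0.05), and over the whole array 23 probes passed in place of 1055. With median centring Wls (limma adjusted p = 0.109), Fzd6 (0.0965) and Dll1 (0.0602) did not pass, with dim probes also tested Cer1 (0.0808), Tbx6 (0.0649) and Dll1 (0.067) did not, and with processed signals Wls (0.0707) did not.

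Of 15 tested genes of ligand production, Wls, the carrier that takes Wnt proteins to the cell surface, rose, and no gene fell. Wls read 0.30, 0.55, 0.38 and 0.51, with a mean of 0.44 ± 0.01 and limma adjusted p = 0.0384; the call ended on leaving out any 1 array (limma adjusted p from 0.0563 to 0.282). Wnt8a, a ligand of the posterior embryo, had the largest mean of the list at 0.61 ± 0.68 (limma adjusted p = 0.11), and passed with processed signals (0.83; limma adjusted p = 0.0368). Its 4 ratios were 0.13, 0.13, 1.17 and 1.01, so the sets did not overlap, and the difference was 0.96 (limma adjusted p = 4.34e-05). The list's median was -0.02.

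Of 19 tested receptors and genes of the R-spondin branch, Fzd6, a Frizzled receptor, rose by 0.53 ± 0.04 (limma adjusted p = 0.0232), and none fell. Its 4 ratios lay between 0.48 and 0.56, and the call ended without age_matched replicate 1 (limma adjusted p = 0.234) and without age_matched replicate 2 (0.0578). The list's median was 0.08.

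Of 12 tested inhibitors of the cell surface and the extracellular space, Cer1 rose and Apcdd1 fell, with a median of 0.05. Cer1, a secreted antagonist of Nodal, BMP and Wnt that is made in the nascent somites, read 0.54, 0.24, 1.23 and 0.89. Its mean was 0.73 ± 0.47 (limma adjusted p = 0.0364), and its difference between the sets was 0.67 (limma adjusted p = 0.0125). The Cer1 call of the mean ended without stage_matched replicate 1 (limma adjusted p = 0.063), age_matched replicate 1 (0.228) or age_matched replicate 2 (0.0588). Sfrp1, a secreted Frizzled-related protein, read 0.01, -0.23, -0.52 and -1.28, and was lower in the age_matched set by a difference of -0.79 (limma adjusted p = 0.00146). This probe had a mean of -0.51, while a dimmer tested Sfrp1 probe had a mean of -0.13. The differences of Cer1 and Sfrp1 both lost their call without background correction, with processed signals and with median centring.

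Of 21 tested cytoplasmic genes, Amer1, an APC-binding protein encoded on the X chromosome, was the 1 that passed. It read -1.09, -0.77, -0.66 and -0.60, fell by 0.78 ± 0.21 (limma adjusted p = 0.0125), and lost its call without age_matched replicate 1 (0.135). It passed in 11 of 13 alternatives, the other exception being the one without background correction (limma adjusted p = 0.0608). No gene of the nuclear list passed (0 of 13 in limma's test). At an unadjusted limma p under 0.05 there were 3, beside 1472 higher and 1431 lower of all 12891 genes. At brightest probes, the largest mean in size of this list was that of Pygo2, a co-factor of beta-catenin, at -0.34 ± 0.09 (limma adjusted p = 0.0762). The 4 Pygo2 ratios were -0.15, -0.42, -0.97 and 0.16, so the age_matched arrays had opposite signs. A dimmer tested probe of Tcf7l1 had a mean of 0.45, while its brightest probe read -0.04. A dimmer tested Bcl9 probe had a mean of -0.34, beside -0.04 at its brightest.

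**Figure D3:**
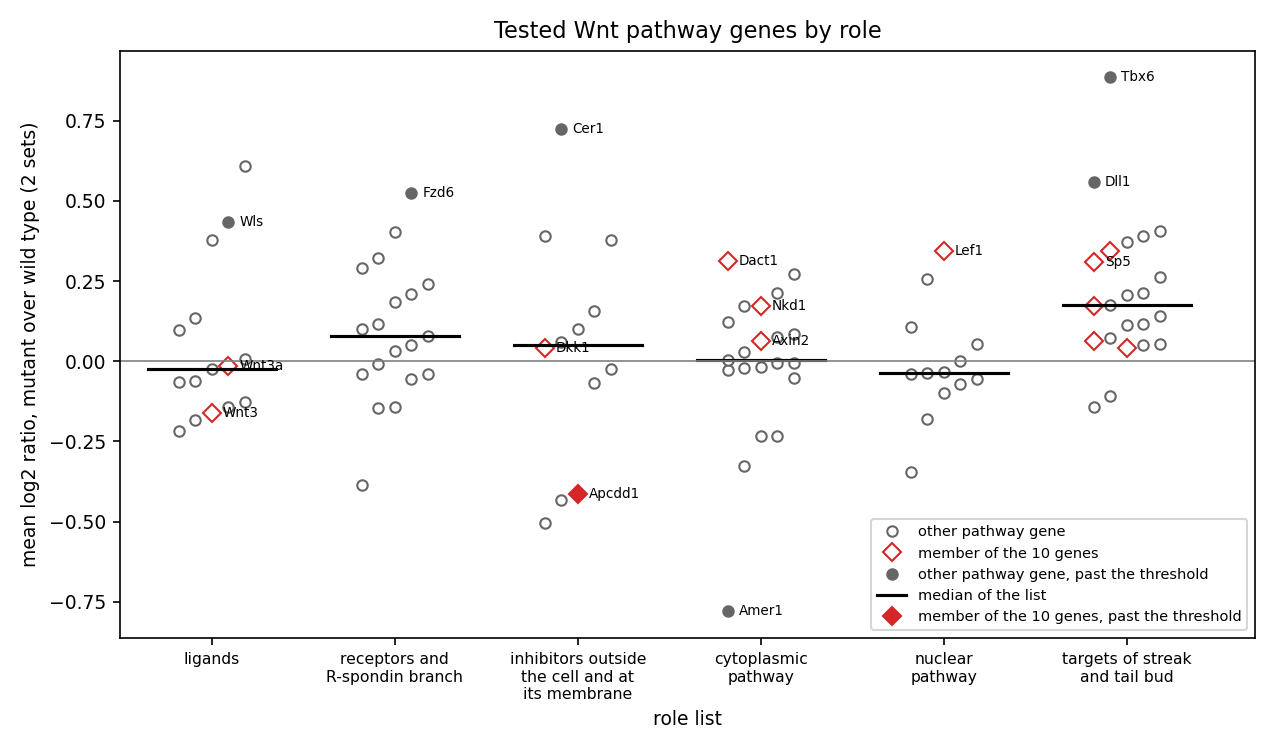
Mean log2 ratio of mutant over wild type over the 2 sets (y axis) for the tested genes of 6 Wnt role lists (x axis), each at its brightest probe; diamonds are the 9 tested genes described here, named once each, filled symbols passed the threshold and the black bar is the list's median. Most genes lie within 0.5 of 0, and the filled symbols are Wls, Fzd6, Cer1, Apcdd1, Amer1, Tbx6 and Dll1.

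Of 22 tested target genes of the streak and tail bud, 20 had a positive mean, beside 6995 of all 12891 genes. Tbx6 and Dll1 rose, and none fell. The median was 0.17, and by set it was -0.02 (stage_matched) and 0.33 (age_matched). Tbx6, a T-box factor of the presomitic mesoderm, read 0.26, 0.78, 0.84 and 1.66, a mean of 0.89 ± 0.52 (limma adjusted p = 0.0248). Dll1, a Notch ligand of the same tissue, read 0.19, 0.53, 0.65 and 0.86, a mean of 0.56 ± 0.28 (limma adjusted p = 0.0364). Tbx6 lost its call without age_matched replicate 1 (limma adjusted p = 0.185), and so did Dll1 (0.243), which also lost it without age_matched replicate 2 (0.0752) or stage_matched replicate 2 (0.0707). Between the sets 4 of the 22 were higher in the age_matched set: Sp5, Tbx6 (0.73; limma adjusted p = 0.0045), Cdx1, a caudal-type homeobox factor (0.68; 0.0122), and T, the brachyury factor (0.62; 0.0268). None was lower, while 1.36% of all tested genes were higher and 0.745% lower in this test. All 4 calls ended without background correction, with processed signals and with median centring.

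Some tissue marker lists moved with these set differences. The median of 14 tested tail bud and presomitic mesoderm genes, 8 of which are also in the target list, was 0.06, 0.09, 0.38 and 0.39 on the 4 arrays. Their summed intensity was 15882 and 15730 (mutant) against 15473 and 13711 (wild type) for the stage_matched pools, and 26091 and 23431 against 18992 and 14413 for the age_matched pools. Of this list, 3 genes rose and 1 fell. The heart list moved the other way, with 8 of 9 genes lower and medians of -0.88 (stage_matched) and -1.88 (age_matched), and 7 of the 9 differed between the sets. Of 12 yolk sac and visceral endoderm genes 11 fell, with medians of -0.87 and -0.94; whether yolk sacs were kept with the embryos is not given in the labels. The red cell median went from -0.44 to -1.19. The medians of the brain and neural tube list were -0.15 and -0.19, of the formed somite list 0.06 and 0.13, and of the trophoblast and decidua list -0.27 and 0.03. By limma's test of the mean, 2 of 5 red cell and 2 of 9 brain genes fell, and 2 of 8 formed somite genes rose. Of all tested genes 2.74% fell and 2.09% rose. Between the sets, 3 red cell and 2 brain genes were lower in the age_matched set, and 2 of 5 trophoblast and decidua genes were higher. Of all tested genes 0.745% were lower and 1.36% higher there. The sexes of the pools also differed: the ratio of Xist was higher in the age_matched set by 1.78 (limma adjusted p = 2.66e-16), and that of the Y-linked Ddx3y went from 0.41 to -0.85. Without background correction 0 of 21940 tested probes passed between the sets, so the calls of these markers and of Xist ended there too. With median centring 1 probe passed. The part of tissue proportions, somite stage and sex in the differences of Sp5 and Wnt3a was not tested. The same holds for Apcdd1, which read -0.42 and -0.41 in the 2 sets.

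**Figure D4:**
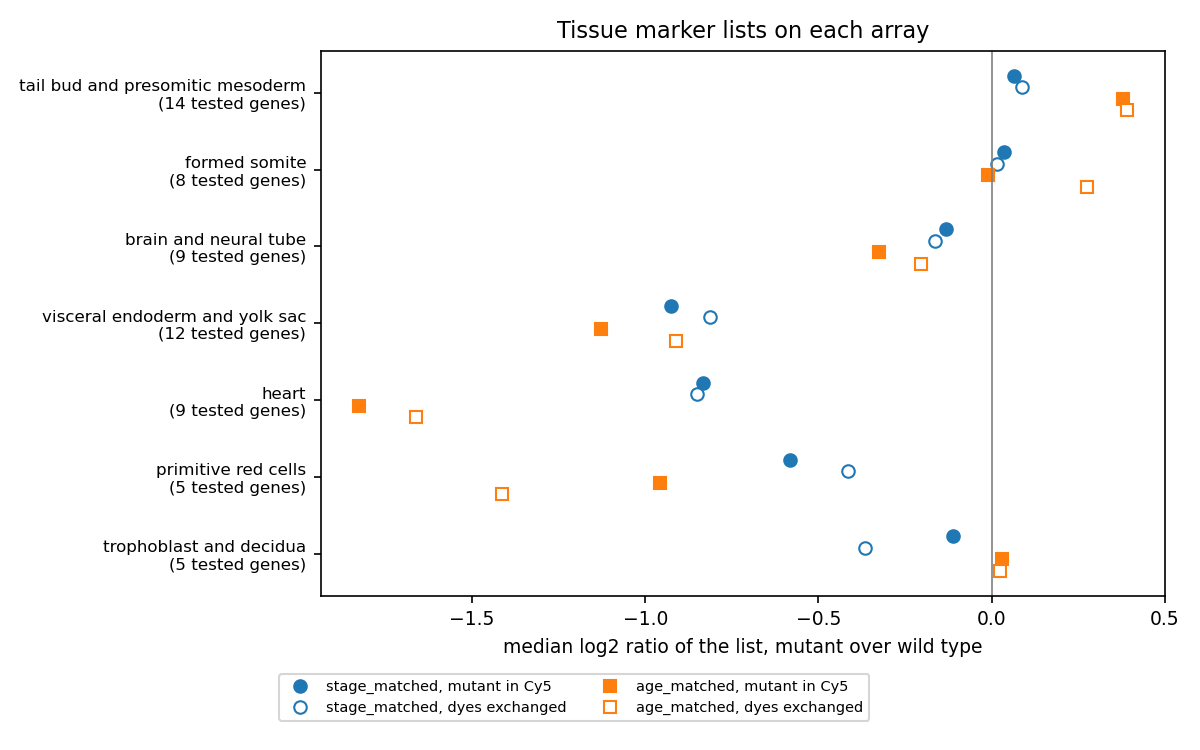
Median log2 ratio of mutant over wild type (x axis) of the tested genes of 7 tissue marker lists (rows), with 1 point per array and the same symbols as in the plot of the members' ratios. The tail bud list lies near 0 in the stage_matched and near 0.4 in the age_matched pools, and the heart list lies below -0.8 on all 4 arrays.

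The genes whose 4 array ratios lay nearest to those of the 3 members with the largest means were found among 12891 genes by root mean square difference. For Apcdd1 they were 8430419K02Rik (0.034), Snora69 (0.042) and Miip (0.046). For Lef1 they were Zfp980 (0.076), Slc29a1 (0.095) and Nenf (0.10), which share its split by dye orientation. For Dact1 they were Gpr85 (0.045), Ak1 (0.049) and Slc30a4 (0.051). With 4 arrays of 2 pairs of pools, such likeness is a description of these hybridisations.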

How the data were processed

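Total RNA (300 ng per labelling) was hybridised to Agilent 4x44K two-colour arrays. The scanner files give spot and background intensity for both dyes, per their file headers. In the value table the authors deposited log10 ratios of processed intensity, turned to mutant over wild type; it matched the scanner's log10 ratio within 5e-06, with a median of 0 on each array. The labels name Feature Extraction 9.5.3 and the file headers 10.5.1.1. With limma 3.58.1 (R 4.3.3), flagged spots were left out, background was corrected by normexp (offset 50), dyes by loess within arrays, signs were turned on exchanged arrays, and log2 ratios were averaged per probe and per set. Tested were 21940 probes well above background in 1 genotype on all 4 arrays. The main test was limma on the 2 set means (7.12 prior degrees of freedom). The difference between sets used 4 arrays with set and dye terms (243 total degrees of freedom). Both were also run on simulated data, with an assumed technical spread and the same dye effect of a probe in both sets. That run checks the code, and not how well either test suits these arrays. Genes were read at their brightest tested probe. No mm9 annotation was used, so exons are not given; RefSeq (GRCm38.p6) gave symbols and promoters. The named genes were all member probes, pathway genes past the threshold in either test, the largest mean of each role list, and the 3 nearest genes to 3 members. Members and lists were chosen with earlier results of these data known. Alternatives covered background, normalization, filter, flags and each array left out.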

Additional observations from a re-analysis of the deposited data

Results flagged for a closer look

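The ratio of mutant over wild type differed between the 2 sets of pools, by limma's test of the difference itself, for 8 genes described above. The age_matched minus stage_matched difference was 0.77 for Sp5, 0.59 for Wnt3a, 0.96 for Wnt8a, 0.73 for Tbx6, 0.68 for Cdx1, 0.67 for Cer1, 0.62 for T and -0.79 for Sfrp1. The error of this test is technical and moderated over all tested probes, and Wnt8a was the 1 gene of the 8 that passed with processed signals.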

How the results depend on the processing

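Apcdd1 stayed negative under all 13 alternatives and passed in 5. With each array left out in turn, the count of member probes lower was 0 (limma; 1 at an unadjusted p under 0.05), that of pathway genes higher ranged from 0 to 5 and lower from 0 to 1, and that of all probes called from 23 to 1207. Without background correction 0 member probes were lower (1 at an unadjusted limma p under 0.05), and 62 of all probes were called (4744 unadjusted). The pathway then had 0 genes higher and 0 lower (19 and 9 unadjusted). Between the sets 0 member probes (3 unadjusted) and 0 of all probes (2171 unadjusted) passed. Normexp with no offset gave 9 pathway genes higher, 4 lower and 1930 probes. Processed signals and the deposited table each gave 0 member probes lower (1 unadjusted) and 1824 probes; processed signals gave 0 member probes higher in the age_matched set (2 unadjusted) and 150 probes between the sets. With no filter, 0 member probes were lower (1 unadjusted), 2 pathway genes higher, 1 lower and 595 probes passed. Median centring gave 2 pathway genes higher, 0 member probes higher in the age_matched set (0 unadjusted) and 1 probe between the sets, and 12.7% of called probes were then higher, against 34.6%.

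Signs turned, all among values that had not passed. For the mean, processed signals and the deposited table gave 0.047 for Wnt3a and 0.033 for Lef1 A_51_P420400, and median centring -0.053 for Dkk1 A_51_P379069 and -0.10 for Dkk1 A_52_P508391. With 1 array left out, the mean ranged from -0.20 to 0.18 for Wnt3a, -0.10 to 0.018 for Lef1 A_51_P420400, -0.21 to 0.30 for Dkk1 A_51_P379069, -0.041 to 0.067 for Dkk1 A_52_P508391, -0.079 to 0.43 for Nkd1 and -0.12 to 0.40 for Cdx1. For the difference between the sets, median centring gave -0.19 for Apcdd1, -0.17 for Wls, -0.17 for Lef1 A_51_P501145, -0.12 for Dact1 A_52_P141417 and -0.054 for Dkk1 A_52_P508391, and processed signals gave -0.0019 for Lef1 A_51_P501145. The cause was not tested. An array left out leaves its set in 1 dye orientation. The planned fit with set as a random block and a dye term could not be fitted, as its correlation could not be estimated. With 4 arrays of 2 pairs of pools, the number of arrays limits precision, and 4 of the 17 member probes were too dim to test.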
